A study of Mus musculus with 6 samples.

Results

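The genes described here are the histone genes measured in sorted pancreatic macrophages after acute pancreatitis. They are the 71 of 31617 genes whose deposited name begins with Hist1h, Hist2h, Hist3h, Hist4h, H2af, H3f3 or H1f, with names ending in -ps left out. Of these, 55 are replication-dependent histone genes (names beginning with Hist) and 16 are variant genes. All mice were wild type Balb/c. Leukocytes of their pancreas were enriched and macrophages sorted for CD45, CD11b and F4/80, which mark leukocytes, myeloid cells and macrophages. To induce pancreatitis, mice were injected hourly 10 times with caerulein, a peptide that drives acinar cells, the enzyme-secreting cells of the pancreas, to oversecrete, and cells were taken on days 1, 3, 4, 5 and 7. The day 4 group is named in its own sample's labels and is not among the days of the design text. The mock group, called day 0, was given saline. Each group was 1 RNA-seq library, made from over 3 pooled mice. With single libraries no difference between days can be tested, and intervals cover counting error alone.

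Chromatin is built of nucleosomes, in which DNA is wrapped around histones H2A, H2B, H3 and H4, while the linker histone H1 binds where the DNA enters and leaves. Replication-dependent histone genes lie in clusters, lack introns and are transcribed mainly in S phase, when new DNA must be packaged. Their mRNAs end in a conserved stem-loop in place of a poly(A) tail, and the stem-loop is bound by the protein made from Slbp. Variant histones are made outside S phase as well, from genes whose mRNAs carry a poly(A) tail. Some replication-dependent genes can also give mRNAs with a poly(A) tail that runs past the stem-loop, for instance in cells that no longer divide. The sources used here do not give whether poly(A)-tailed RNA was selected for these libraries.

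The stem-loop letters of 6 members are shown first because the replication-dependent genes are grouped below by how far their annotated 3′ end lies past it. They come from GENCODE M21 transcripts (GRCm38), 5′ to 3′ as DNA letters, with the 16 bases of the stem-loop in capitals and 5 bases on each side in lower case.
Hist1h1c: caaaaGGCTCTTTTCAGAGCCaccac
Hist1h2ae: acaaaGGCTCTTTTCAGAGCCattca
Hist1h2bg: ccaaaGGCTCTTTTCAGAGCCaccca
Hist1h4i: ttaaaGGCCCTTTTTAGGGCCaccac
Hist4h4: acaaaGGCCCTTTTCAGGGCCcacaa
H2afx: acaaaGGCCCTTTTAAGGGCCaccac
Hist1h1c, Hist1h2ae and Hist1h2bg share the same 16 letters, which 20 replication-dependent genes hold. The form of Hist4h4 is held by 7 replication-dependent genes. H2afx, which encodes H2A.X, is the only variant with a match to the histone stem-loop consensus, searched on the transcript strand. A match was present in 38 of the 53 replication-dependent genes with a GENCODE model (71.7%), against 68 of 21901 genes with a protein-coding transcript (0.310%, these members included). Several models without a match, such as that of Hist1h1b, end at the stop codon, so a stem-loop could not be seen in them. A match is a description of letters, not of a processed end.

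Reads counted to genes, as recovered from the deposited values, were between 14853084 (day 4) and 25726455 (day 3) per library. Histone genes took 0.320 to 0.718% of them. Values are the authors' normalised read counts, and comparisons between genes are given per kb of annotated exon. That length joins the exons of all annotated transcripts of a gene, those with a retained intron included. The genes of the sort were present on each day, with Ptprc, which encodes CD45, at 7282 to 12626 and Adgre1, which encodes F4/80, at 9671 to 23702. Itgam, which encodes CD11b, lay between 678 and 2627 (the gene with ID ENSMUSG00000030786; a second entry of that name held 4 reads at most in a library). A set of 6 macrophage genes, Adgre1 among them, summed to 102305 in mock and 96368 to 190096 on the other days. Of these, 4 were at least 2-fold higher than mock on day 5 and none lower. On day 1, 2 were higher and 2 lower than mock, and on day 7 none was higher and 5 were lower than on day 5. Among the 10000 genes with the highest mean, the shares were 3.68% higher and 6.4% lower, 6.68% and 9.58%, and 5.07% and 4.68%. Markers of other cells were not at 0 in any library, and their sums stand beside the results with which they moved. In RNA from sorted cells, fewer cells of a type and less RNA per cell cannot be told apart. Histone genes are near-identical within a class, and the sources used here do not say how shared reads were counted. Values of single replication-dependent genes are therefore uncertain, and class sums less so.

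Most histone reads came from a variant. H3f3b, which encodes the replacement histone H3.3 used outside S phase, held 60.1 to 83.0% of histone reads over the 6 libraries. All 55 replication-dependent genes together held 1.58% (day 1) to 6.19% (day 4). Per kb, the mean level over the 6 libraries was 21574 for H3f3b, 4257 for H2afz, 1804 for H1f0 and 1264 for Hist1h1c. Next came H2afy at 891, H3f3a at 733, H2afv at 636 and H2afx at 509.8 per kb. Hist1h1c was thus the one replication-dependent gene at the level of the abundant variants. The order depends on the length used, which is longer than a single mRNA for genes with several transcripts. H2afy, for instance, has coding transcripts of 2046 and 1933 bases and one with a retained intron of 4018. Without length, the mean was 6065 for H2afy, 3708 for H1f0, 2568 for H3f3a and 1971 for Hist1h1c. The order of H1f0 and Hist1h1c turned on day 4, when Hist1h1c was at 2723 and H1f0 at 2107 per kb, while in the other 5 libraries H1f0 was the higher.

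Only 13 members, 4 replication-dependent and 9 variant, were among the 10000 genes with the highest mean. A total of 31 members, 21 replication-dependent and 10 variant, had at least 60 reads over the 6 libraries, which left 34 replication-dependent and 6 variant genes below. Counts among expressed members therefore leave out most replication-dependent genes, and sums over all members are given with them. On chromosome 13 (GRCm38, GENCODE M21) lay 45 of the 53 replication-dependent genes with a model, while the 16 variants were spread over 9 chromosomes.

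The replication-dependent sum was highest on day 4, and lowest on day 7 with the authors' scaling but on day 1 with equal column totals or median-centred libraries. It had a normalised count of 3477 in mock and 2263, 4230.1, 6048, 2489 and 1927 on days 1, 3, 4, 5 and 7. Against mock, the log2 ratio was -0.62 (-0.70 to -0.54) on day 1, 0.28 (0.22 to 0.34) on day 3, 0.80 (0.74 to 0.86) on day 4, -0.48 (-0.56 to -0.41) on day 5 and -0.85 (-0.93 to -0.78) on day 7, each with the 95% interval that read counting allows. The values thus lay below mock on days 1, 5 and 7 and above it on days 3 and 4. This course was mostly that of Hist1h1c, a linker histone gene, and of Hist1h2bc, an H2B gene, which together gave 54.2 to 82.5% of replication-dependent reads. The other 53 genes summed to 1131 in mock and 1036, 1630.5, 1061, 946 and 832 on days 1, 3, 4, 5 and 7. They were highest on day 3, at a log2 ratio to mock of 0.53 (0.43 to 0.63), and on day 4 they were close to mock at -0.092 (-0.22 to 0.038).

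Among the 5 classes, the H1 genes had a sum of 2403 in mock and 1480.4, 2739.8, 4395, 1449.7 and 1211 on days 1, 3, 4, 5 and 7. Their day 4 maximum was that of Hist1h1c, since the other 4 H1 genes were highest on day 3, at 630.4 against 328 in mock, and had 148 on day 4. The 17 H2B genes summed to 531 in mock and 346, 806, 982, 413 and 271 on days 1, 3, 4, 5 and 7, and here too the day 4 maximum rested on 1 gene. Without Hist1h2bc, the other 16 were highest on day 3, at 316, with 243 on day 4, against 259.8 in mock. The 11 H2A genes were highest on day 3 instead, at 202 against 94.5 in mock, a log2 ratio of 1.10 (0.76 to 1.44), which was 0.75 (0.34 to 1.17) without Hist1h2ae. The 10 H3 genes summed to between 89.5 on day 7 and 154 on day 3. Their intervals against mock included 0 on days 1, 3, 4 and 5. The 12 H4 genes were lowest on day 1, at 202 against 316 in mock, and highest on days 4 and 5, at 405 and 401. Without Hist4h4 the other 11 H4 genes were highest on day 3, at 225, with 186 and 165 on days 4 and 5, against 184 in mock. The plot of class sums shows these courses beside those of the variant families.

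**Figure D1:**
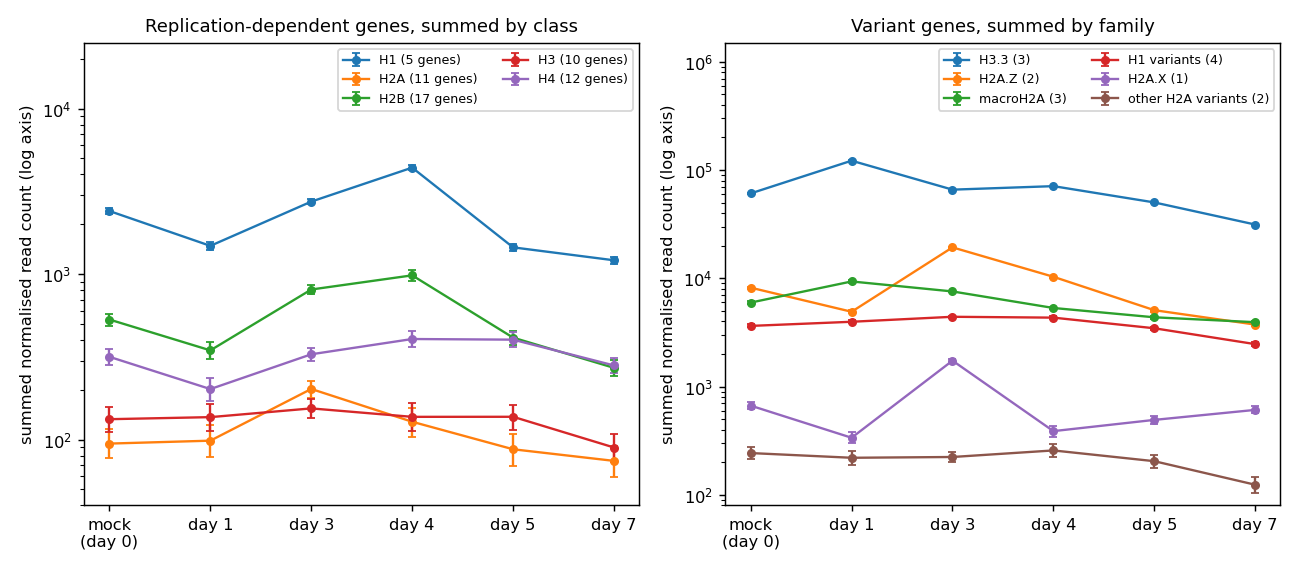
Summed normalised read count (log axis) of the replication-dependent genes by class (left) and of the variant genes by family (right) in 6 libraries, mock and days 1, 3, 4, 5 and 7. Points are 1 library each and bars are 95% counting intervals. The H1 and H2B sums are highest on day 4, each through 1 gene (Hist1h1c and Hist1h2bc), while the replication-dependent H2A, H2A.Z and H2A.X sums are highest on day 3.

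The linker histone genes parted within their class. Hist1h1c, the most abundant, had 2075 in mock and 1109, 2109, 4248, 1308 and 978 on days 1, 3, 4, 5 and 7. It was 2.05-fold (1.94 to 2.16) higher on day 4 than in mock and 2.12-fold (1.97 to 2.28) lower on day 7. Its log2 ratio of day 4 to day 3 was 1.01 (0.94 to 1.08), and that of day 5 to day 4 -1.70 (-1.79 to -1.60). The day 4 library stood alone above the other 5, which lay between 978 and 2109.

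Hist1h1b, another linker histone gene of the same cluster, had its maximum a day earlier and almost no reads on day 4. It had 55.4 in mock and 12.3, 204, 3.88, 14.6 and 49.8 on days 1, 3, 4, 5 and 7. The day 4 value rests on 3 reads, against 289 on day 3, so the log2 ratio of -5.71 between them has a wide interval, of -7.999 to -4.15. On day 3 it was 3.67-fold (2.76 to 4.96) higher than in mock. Its day 7 value was close to mock. Hist1h1a, with 49 reads on day 3 and at most 8 in the other 5 libraries, was likewise highest on day 3, and so was Hist1h1d, which had 69.7 in mock and 30.8, 101, 31.1, 9.36 and 31.3 on days 1, 3, 4, 5 and 7. Hist1h1e differed from these, with 195 in mock and 324, 291, 109, 114 and 147 on days 1, 3, 4, 5 and 7. Its highest values were on days 1 and 3, and its lowest on days 4 and 5.

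The promoters of these linker histone genes are shown because Hist1h1b and Hist1h1c lie in one cluster, share promoter letters and differed in their highest day. Sequences are 250 bases before to 50 after the start in the RefSeq table (GRCm38.p6), printed along the gene's strand, with every motif searched in capitals. Hist1h1b spans chr13:21780576-21780875 (minus strand) and Hist1h1c chr13:23738557-23738856 (plus strand).
Hist1h1b: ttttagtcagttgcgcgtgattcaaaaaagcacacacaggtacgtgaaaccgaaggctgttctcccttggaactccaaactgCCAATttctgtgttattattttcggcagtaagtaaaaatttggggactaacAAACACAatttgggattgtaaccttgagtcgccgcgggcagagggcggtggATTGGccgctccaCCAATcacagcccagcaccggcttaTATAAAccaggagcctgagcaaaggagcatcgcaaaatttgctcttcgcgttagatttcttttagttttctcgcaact
Hist1h1c: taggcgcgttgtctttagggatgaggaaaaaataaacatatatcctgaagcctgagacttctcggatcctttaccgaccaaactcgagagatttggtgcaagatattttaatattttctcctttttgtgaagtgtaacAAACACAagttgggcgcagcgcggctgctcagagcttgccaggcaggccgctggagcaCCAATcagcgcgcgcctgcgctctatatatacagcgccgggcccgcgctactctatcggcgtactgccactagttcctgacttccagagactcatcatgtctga
Both hold the H1 box AAACACA and the CCAAT letters, the nearest at 117 and 53 bases before the start in Hist1h1b and at 112 and 54 bases in Hist1h1c. The TATA letters TATAAA were 28 bases before the start of Hist1h1b and were not found in the window of Hist1h1c. Only this exact form was searched. The printed Hist1h1c window holds TATA letters in another form between its CCAAT letters and the start. AAACACA was in the windows of 4 of the 5 H1 genes, against 7.18% of 32851 promoters in the table, on either strand. Such matches describe letters and say nothing of binding.

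Of the replication-dependent core histone genes, Hist1h2bc was the most abundant and had the highest value on day 4. Its normalised count was 271 in mock and 118, 490.2, 739, 234 and 117 on days 1, 3, 4, 5 and 7, a log2 ratio to mock of 1.45 (1.24 to 1.66) on day 4, -1.20 (-1.55 to -0.86) on day 1 and -1.22 (-1.52 to -0.92) on day 7. Hist4h4, an H4 gene on chromosome 6, had 132 in mock and 76.3, 102, 219, 236 and 121 on days 1, 3, 4, 5 and 7. It was highest on days 4 and 5, which lay within counting error of each other. Hist2h4, another H4 gene, had 79.3 in mock, then 33.2, 25.4, 63.4, 85.3 and 70.9 on those days, and its day 3 value was 3.13-fold (2.09 to 4.76) lower than mock.

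Hist1h2ae, an H2A gene, and Hist1h2bg, an H2B gene, are a divergent pair whose promoter windows overlap over nearly their whole length. The window of Hist1h2bg, chr13:23571150-23571449 (plus strand, RefSeq GRCm38.p6), is shown because both genes are read from it.
Hist1h2bg: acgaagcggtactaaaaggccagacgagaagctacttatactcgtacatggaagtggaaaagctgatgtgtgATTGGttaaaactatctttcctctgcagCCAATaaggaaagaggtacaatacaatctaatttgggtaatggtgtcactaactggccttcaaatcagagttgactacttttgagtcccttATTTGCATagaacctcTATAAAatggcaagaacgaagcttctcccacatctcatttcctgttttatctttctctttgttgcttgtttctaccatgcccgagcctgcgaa
The capitals mark the octamer letters ATTTGCAT, known from H2B promoters, the TATA letters and CCAAT on both strands. ATTTGCAT was in 11 of the 48 replication-dependent genes with a promoter in the table, 6 of 15 H2B and 5 of 9 H2A genes, against 1.74% of all promoters. Hist1h2ae had 26.7 in mock and 11.1, 88.0, 19.4, 8.32 and 15.2 on days 1, 3, 4, 5 and 7, a log2 ratio to mock of 1.72 (1.12 to 2.37) on day 3. Hist1h2bg had 62.1 in mock, then 83.7, 96.5, 56.9, 51.0 and 42.2 on those days, and a ratio of 0.64 (0.20 to 1.09) on day 3. Both were highest on day 3, though for Hist1h2bg the order of days 3 and 1 turned with the scaling, and the day 3 interval of Hist1h2ae lay above that of Hist1h2bg. Over the whole class, CCAAT was in 83.3% of replication-dependent promoters, 58.3% of the 12 variant promoters matched and 37.4% of all promoters. For TATAAA the shares were 60.4%, 8.33% and 13.6%. By class, CCAAT was in every matched H1, H2A, H2B and H3 promoter but in 3 of the 11 H4 promoters (27.3%). E2F letters were searched as TTTCGCGC, TTTGGCGC, TTTCCCGC and TTTGCCGC. They were in 7 of the 48 replication-dependent and 0 of the 12 variant promoters, against 2.26% of all. Windows of divergent pairs overlap, so in these shares a site can count for both genes. The E2F letters of Hist1h2ad are those of Hist1h2bf, and Hist1h2an and Hist1h2bp share a site. The octamer of Hist1h2ae is likewise that of Hist1h2bg.

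Other replication-dependent core histone genes were low. Hist1h4d was highest on day 3, at 82.4 against 37.2 in mock, and Hist1h4i on days 3 and 4, at 67.6 and 60.8 against 28.6 in mock. Hist2h2be lay between 49.8 on day 7 and 98.3 on day 4, and Hist1h2be between 35.5 on day 7 and 61.1 in mock. The H3 genes Hist1h3d, Hist1h3f, Hist1h3e and Hist1h3a, which encode the S phase forms of H3, ranged from 3.38 to 54.1 over all libraries. Their intervals against mock included 0 on days 1, 3, 4 and 5. Hist3h2a lay between 28.6 and 50.5, and Hist1h2al, which GENCODE calls a processed pseudogene, between 11.8 and 45.3. Hist1h2ac had at most 12 reads in a library. The 34 replication-dependent genes under 60 reads summed to 115 in mock and 77.5, 233, 94.5, 63.4 and 83.6 on days 1, 3, 4, 5 and 7. Of these, 19 had their highest value on day 3, which is also the deepest library.

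The replication-dependent genes with a stem-loop were grouped by annotated 3′ end, and the groups overlapped in level and in highest day. Genes whose GENCODE transcript ran at least 100 bases past the stem-loop are called extended here, and the others short. This threshold was chosen with the values in view, and the genes nearest to it are Hist1h3c with 74 bases and Hist1h4a with 108. The 20 extended genes gave 81.7% of replication-dependent reads, and 14 of them had at least 60 reads. The 18 short genes gave 2.22%, 463 reads in all, and 1 of them, Hist1h3a, had at least 60 reads. The median level was 26.4 per kb for extended genes and 5.48 per kb for short genes, with ranges of 1.15 to 1264 and 1.44 to 23.8 that overlap. A further 15 genes with no stem-loop in their model gave 15.9%. They include Hist1h2bc, and Hist1h1b, whose model ends at the stop codon. The other 2 genes, Hist1h2bm and Hist1h2bh, have no model in this annotation. These are descriptions over genes, which are not replicates.

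**Figure D2:**
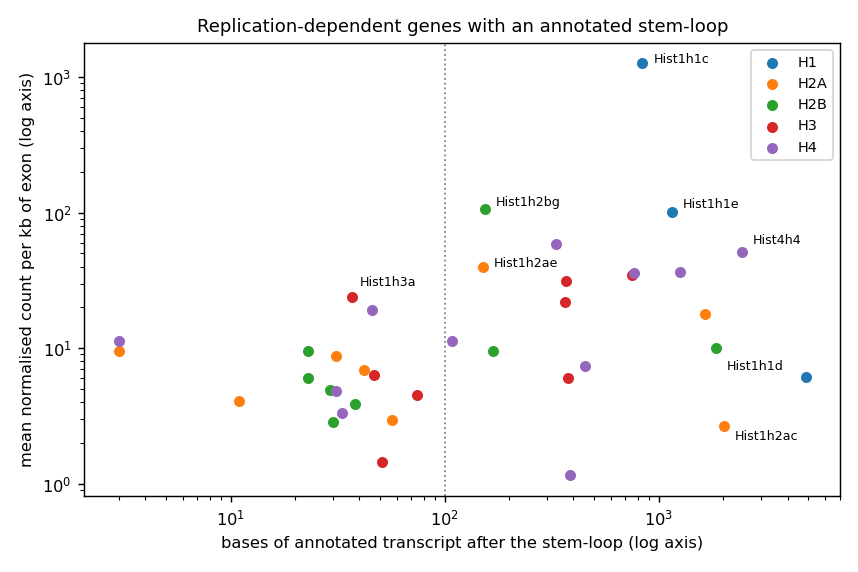
Mean normalised count per kb of exon over 6 libraries (log axis) against the bases of annotated transcript after the stem-loop (log axis), for the 38 replication-dependent genes with a match, coloured by class. The dotted line marks 100 bases. Of the 18 genes to its left none lies above 23.8 per kb, while Hist1h1c, with 840 bases after the stem-loop, is at 1264 per kb.

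The short genes summed to 58.3 in mock and 52.9, 168, 40.1, 34.3 and 48.1 on days 1, 3, 4, 5 and 7. Their day 3 value was 2.88-fold (2.16 to 3.88) higher than mock, and 13 of the 18 had their highest value on day 3. Day 3 is also the deepest library, and 9, 6 and 6 of the 18 had 0 reads on days 1, 4 and 5. On day 4 the sum was 4.18-fold (2.87 to 6.29) lower than on day 3. The extended genes summed to 2940.4 in mock and 1951, 3171, 5062, 2105 and 1621 on days 1, 3, 4, 5 and 7 and were highest on day 4, at a log2 ratio to mock of 0.78 (0.72 to 0.85). That maximum was Hist1h1c alone, which gave 11768 of the 17022 reads of extended genes. The other 19 extended genes summed to 865 in mock and 842, 1062, 814, 797 and 643 on days 1, 3, 4, 5 and 7. They were highest on day 3 like the short genes, and their log2 ratio to mock was 0.30 (0.18 to 0.42) on day 3 and -0.088 (-0.24 to 0.06) on day 4. Against day 3, the day 4 log2 ratio was -2.06 (-2.65 to -1.52) for short genes, 0.67 (0.61 to 0.74) for all extended genes and -0.38 (-0.52 to -0.25) without Hist1h1c. The extended genes Hist1h1e, Hist1h1d, Hist1h2ae and Hist1h4d were each at least 2-fold lower on day 4 than on day 3, the last of them not under every scaling. The highest value fell on day 3 for 6 of the 20 extended genes and on day 4 for 4 of them, while 5 had it on day 5, 2 on day 1 and 3 in mock.

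Genes of DNA replication had their highest sum on day 3 as well. The 32 genes of this list, chosen with earlier results of these data known, summed to 20824 in mock and 11309.5, 40592, 8534, 9944 and 10711 on days 1, 3, 4, 5 and 7. Of the 29 that were expressed, 12 were at least 2-fold higher on day 3 than in mock and 0 lower, where 3.73% of the 10000 expressed genes were higher and 5.71% lower. On day 4, 0 were higher and 23 lower, where 3.31% and 8.11% of all were. Ccna2, which encodes the S phase cyclin A, had 1747 on day 3 and 69.9 on day 4, against 541 in mock. Rrm2, a subunit of ribonucleotide reductase, had 2818 and 131 on those days against 769 in mock. Tk1 and Tyms, enzymes of thymidine nucleotide supply, had 2564 and 1425 on day 3, against 794 and 491 in mock.

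**Figure D3:**
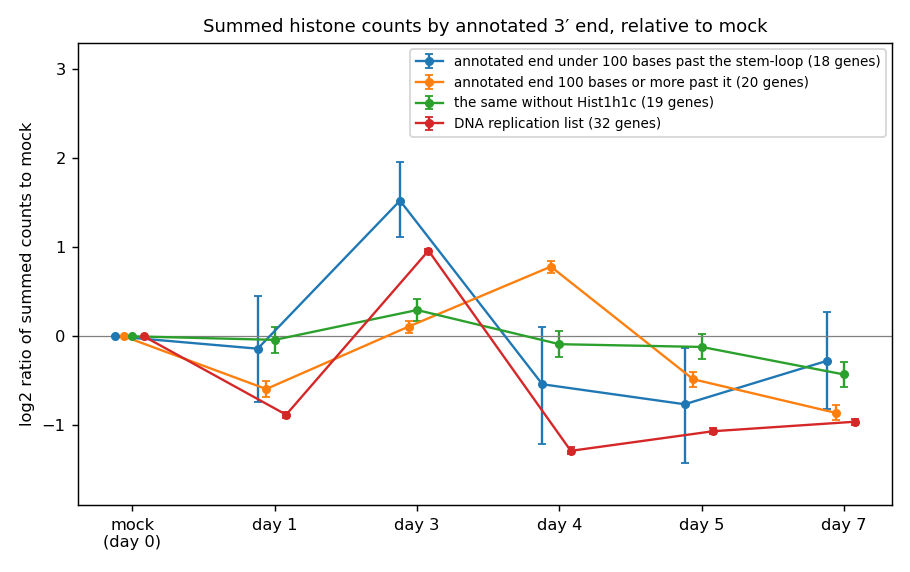
Log2 ratio of summed normalised counts to mock for short and extended replication-dependent genes, for the extended genes without Hist1h1c, and for the DNA replication list, by day. Points are 1 library each, shifted sideways for legibility, and bars are 95% counting intervals. Short histone genes, the replication list and the 19 extended genes other than Hist1h1c peak on day 3, and the extended genes with Hist1h1c on day 4.

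Markers of other cells also differed between these libraries. On day 3 the 5 fibroblast and stellate genes, among them Col1a1, summed to 14106 against 2739.8 in mock, with 3 of the 4 expressed ones at least 2-fold higher. The 5 duct genes summed to 3559.6 on day 3 against 538 in mock, with 4 of 4 expressed ones higher, and the 3 erythroid genes to 3359.5 against 1597, with 2 of 2 higher. Among all expressed genes, 3.73% were at least 2-fold higher on day 3 than in mock. Acinar genes summed to 385774 in mock, 15117 to 69766 on days 1 to 5 and 397172 on day 7. On day 4 the fibroblast sum was 646, while the neutrophil genes summed to 10869.9 against 6969 in mock, of which Retnlg gave 9911 on day 4 while the other 3 of 4 lay 2-fold or more below mock. T cell genes summed to 272 on day 3 and 3398 on day 7, against 2283 in mock. B cell and NK cell genes were also lower on day 3 than in mock, at 675 against 5559.9 and 78.9 against 1627. Dendritic cell genes summed to 559 on day 3 and 1149 on day 4, against 2516 in mock, most of it from Ccr7. Without Ccr7, which activated dendritic cells and other leukocytes express, the other 3 dendritic genes summed to 375 on day 3 and 926 on day 4, against 354 in mock. Their part in the histone results was not tested.

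The variants followed several courses. H3f3b was highest on day 1 and lowest on day 7, with 58314 in mock and 118735, 62144, 67742, 48353 and 29929 on days 1, 3, 4, 5 and 7. It was 2.04-fold (2.02 to 2.06) higher on day 1 than in mock and 1.95-fold (1.92 to 1.97) lower on day 7. The day 1 library stood alone, since the other 5 lay between 29929 and 67742. H3f3a, which encodes the same H3.3 protein, had 2386 in mock and 3094, 3596, 3140.2, 1796 and 1396 on days 1, 3, 4, 5 and 7 and was highest on day 3. H3f3c, a processed pseudogene in GENCODE that may share reads with the other H3.3 genes, lay between 59.97 on day 7 and 179.7 on day 1. H3f3aos, annotated antisense to H3f3a, had 52 reads in all, and whether counting used strand is not given.

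H2afz and H2afv, which encode the H2A.Z proteins found at promoters, and H2afx shared a maximum on day 3. H2afz had 7254 in mock and 4646, 16930.1, 9011, 4379 and 3139 on days 1, 3, 4, 5 and 7. It was 2.33-fold (2.27 to 2.40) higher on day 3 than in mock and 2.31-fold (2.22 to 2.40) lower on day 7. H2afv had 946 in mock and 267, 2389, 1326, 702 and 601 on days 1, 3, 4, 5 and 7, with the widest range of the abundant variants: it was 8.95-fold (7.80 to 10.31) higher on day 3 than on day 1. H2A.X marks DNA breaks when phosphorylated, and H2afx, its gene, had 668 in mock and 337, 1738, 388, 493 and 609.8 on days 1, 3, 4, 5 and 7. On day 3 it was 2.60-fold (2.39 to 2.83) higher than in mock, and on day 4 4.48-fold (3.97 to 5.06) lower than on day 3. On day 4 H2afz and H2afv were above mock, at log2 ratios of 0.31 (0.27 to 0.36) and 0.49 (0.36 to 0.61), while H2afx was below it at -0.78 (-0.98 to -0.58). The fibroblast, duct and erythroid marker sums given above were also highest on day 3.

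**Figure D4:**
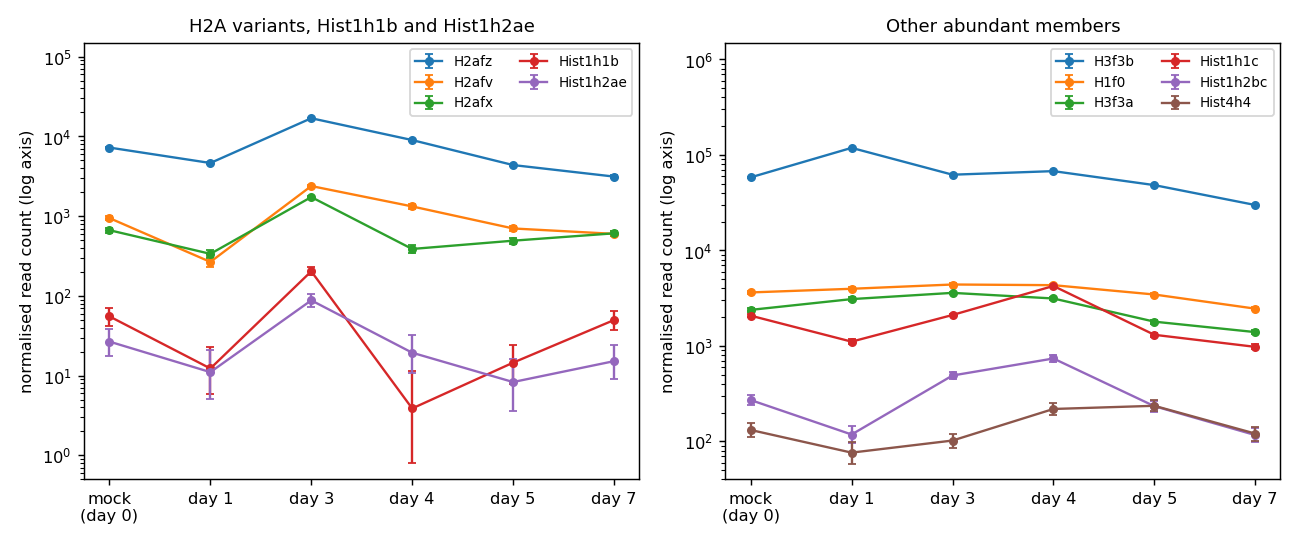
Normalised read count (log axis) by day for H2afz, H2afv, H2afx, Hist1h1b and Hist1h2ae (left) and for other abundant members (right). Points are 1 library each and bars are 95% counting intervals. The 5 genes on the left are highest on day 3, H3f3b on day 1, and Hist1h1c and Hist1h2bc on day 4.

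H2afz is shown with its promoter window, chr3:137864237-137864536 (plus strand, RefSeq GRCm38.p6), as a variant to set beside the replication-dependent windows above.
H2afz: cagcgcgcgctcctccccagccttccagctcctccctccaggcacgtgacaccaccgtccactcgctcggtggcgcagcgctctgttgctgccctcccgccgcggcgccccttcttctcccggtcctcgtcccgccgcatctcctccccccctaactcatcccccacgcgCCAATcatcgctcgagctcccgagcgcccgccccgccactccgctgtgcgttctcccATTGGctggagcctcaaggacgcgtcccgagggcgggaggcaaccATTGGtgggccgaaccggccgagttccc
It holds CCAAT letters on both strands, and neither TATAAA nor the H1 box nor the octamer letters were found in it.

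The remaining variants varied less. H2afy, which encodes macroH2A, had 5949 in mock and 9343, 7534, 5299.7, 4347 and 3917 on days 1, 3, 4, 5 and 7, a log2 ratio to mock of 0.65 (0.60 to 0.70) on day 1 and -0.60 (-0.66 to -0.55) on day 7. H1f0, the linker histone gene of cells that have stopped dividing, lay between 2457 on day 7 and 4399.8 on day 3. H2afj, an H2A variant, lay between 124 on day 7 and 257 on day 4, and the order of day 4 and mock turned with the scaling. H2afy2, a second macroH2A gene, had 143 reads in all, and H1fx, H1fnt, H1foo, H2afb1 and H2afy3 had between 3 and 26.

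Counted at 2-fold on the log2 scale with a pseudocount of 17.8, members past the threshold were few. On day 1 among the 4 expressed replication-dependent genes 0 were higher and 1, Hist1h2bc, was lower than mock, where 6.68% of the 10000 expressed genes were higher and 9.58% lower. Their median was -0.78, and that of all expressed genes 0.15. On day 3 the counts were 0 and 0 (median 0.28) where 3.73% and 5.71% of all genes passed, and on day 4 Hist1h1c and Hist1h2bc were higher and 0 lower where 3.31% and 8.11% passed. The day 4 median was 0.84 over these 4 genes, but -0.0041 over the 21 replication-dependent genes with at least 60 reads and -0.0016 over all 55. On day 5 the counts were 0 and 0 (median -0.43) beside 3.68% and 6.4%, and on day 7 none was higher and Hist1h1c and Hist1h2bc were lower (median -0.72) beside 1.96% and 6.57%. The median of all expressed genes was 0.075, -0.014, 0.12 and -0.11 on days 3, 4, 5 and 7.

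Among the 9 expressed variants, H3f3b was higher and H2afv lower on day 1 (median 0.13, but -0.12 under equal column totals and -0.053 after quantile normalisation). On day 3 H2afz, H2afv and H2afx were higher and none lower (median 0.34). None passed on days 4 and 5 (medians 0.22 and -0.42), and on day 7 H2afz and H3f3c were lower (median -0.77). Under equal column totals, which give every library the same sum, the median of all expressed genes was -0.082 on day 1 and 0.16 on day 7. Of these calls, those of H2afz, H2afv and H2afx on day 3, H2afv on day 1 and Hist1h2bc on day 4 held under all 4 scalings tried, while those of Hist1h1c, H3f3b, Hist1h2bc on days 1 and 7 and both variants on day 7 did not.

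With the 21 replication-dependent genes of at least 60 reads, 3 were higher on day 3 than mock (Hist1h1b, Hist1h2ae and Hist1h1a) and 1 lower (Hist2h4), where 3.77% and 5.82% of 14106 genes passed. On day 4, 2 were higher and 1, Hist1h1b, was lower (3.08% higher and 8.16% lower among all genes). On day 1, 0 were higher and 2 lower (5.47% and 10.6%), on day 5 Hist1h1b and Hist1h1d were lower (3.01% higher and 7.29% lower among all genes), and on day 7 Hist1h1c and Hist1h2bc were lower (2.85% and 5.47%). Between days 3 and 1, 5 were higher on day 3 and 0 lower (11% and 7%): Hist1h1b, Hist1h1d, Hist1h1a, Hist1h2ae and Hist1h2bc. From day 3 to day 4, Hist1h1c was higher on day 4 and 6 were lower (3.2% and 6.61%), all 4 other H1 genes with Hist1h2ae and Hist1h4d. On day 5 against day 4 Hist1h1c and Hist1h2bc were lower and none higher (4.35% higher and 3.26% lower among all genes), and on day 7 against day 5 Hist1h1b was higher and none lower (7.93% and 3.69%). Among the 10000 expressed genes, 9.72% were higher and 8.21% lower on day 3 than on day 1, where Hist1h2bc, H2afz, H2afv and H2afx were higher and none lower among the 13 expressed members. On day 4 against day 3, 3.23% were higher and 5.89% lower, where Hist1h1c was higher and Hist1h1e and H2afx lower. On day 5 against day 4, 5.4% were higher and 3.11% lower, where Hist1h1c, Hist1h2bc and H2afz were lower. On day 7 against day 5, 5.07% were higher and 4.68% lower, and none of the 13 passed. Comparisons that share the mock or the day 3 library are not independent of each other.

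**Figure D5:**
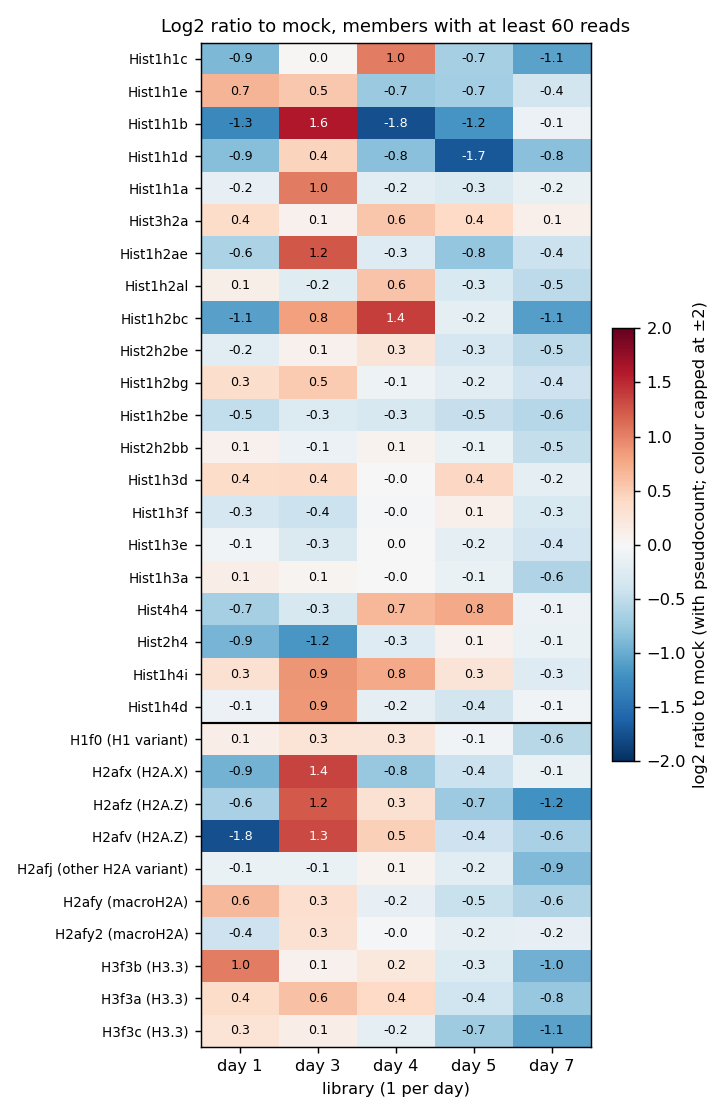
Log2 ratio to mock, with the pseudocount of 17.8, of the 31 members with at least 60 reads (down the plot, replication-dependent above the line and variants below) on 5 days (across). Red is higher and blue lower than mock, and colours are capped at 2. Hist1h1c and Hist1h2bc are red on day 4, Hist1h1b, Hist1h2ae, H2afx, H2afz and H2afv on day 3, and day 7 is blue for all members but Hist3h2a, of which 5 turn direction under another scaling.

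The genes that make or handle histone mRNA were few, so counts past 2-fold say little. Of 12 expressed genes of histone mRNA processing, 0 were at least 2-fold higher or lower than mock on any of the 5 days, where 1.96 to 6.68% of all expressed genes were higher and 5.71 to 9.58% lower. Between days, 2 were lower on day 4 than on day 3, 2 higher on day 5 than on day 4 and 1 lower on day 7 than on day 5. The shares of all expressed genes in those directions were 5.89%, 5.4% and 4.68%. Slbp had 2302 in mock and 2513, 3212, 1754, 1646 and 1278 on days 1, 3, 4, 5 and 7. Eri1, a nuclease of histone mRNA decay, was highest on day 3 at 1842 against 1204 in mock. Ncbp2, of the cap-binding complex, had 807 on day 3 against 583 in mock, and the helicase gene Upf1 had 447 against 572. Srrt, named after its values were seen, was the farthest from mock on any day, at a log2 ratio of -0.96 with the pseudocount on day 4.

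Histone chaperones carry histones to DNA. Of 20 expressed genes, 1 was higher and 4 lower on day 1 than in mock, 2 higher and 1 lower on day 3, 0 higher and 4 lower on day 4, 1 higher and 4 lower on day 5, and 0 higher and 5 lower on day 7. The shares of all expressed genes were 6.68% higher and 9.58% lower on day 1, 3.73% and 5.71% on day 3, 3.31% and 8.11% on day 4, 3.68% and 6.4% on day 5, and 1.96% and 6.57% on day 7. Counts of 1 or 2 of 20 are near these shares. Asf1b, a chaperone of H3 and H4 in dividing cells, had 835 in mock and 246, 2633, 158, 233 and 302 on days 1, 3, 4, 5 and 7. Chaf1b, a subunit of the CAF-1 complex that follows the replication fork, had 308 in mock and 134, 632, 88.0, 61.4 and 126 on days 1, 3, 4, 5 and 7. Cenpa, the centromeric H3 variant kept in this list, had 1263 in mock and 341, 2905, 1566, 584 and 591 on days 1, 3, 4, 5 and 7. These 3 were highest on day 3. Daxx, which places H3.3, was lower on day 3 than in mock, with 2805 in mock and 12216, 906, 721, 5242 and 2079 on days 1, 3, 4, 5 and 7, and like H3f3b it was highest on day 1.

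Tested as counts with edgeR's quasi-likelihood test and Benjamini-Hochberg adjustment, the 5 caerulein libraries against mock gave 0 called genes of 14106 (0% called), members included. At an unadjusted p under 0.05 there were 98 genes, of which 0 were members. DESeq2 called 2 genes and 0 members. This test treats libraries of different days as replicates and does not compare single days.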

How the data were processed

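The deposited values are one normalised signal per gene and library, made by the authors. The sources used here do not say how. Dividing each value by the smallest step of its library gave whole reads, within 0.01 reads, for 100% of values, so the authors' values are read counts divided by a factor per library. Bowtie 0.12.2 and mm8 are named, without a role, in the submitters' processing notes.

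Members were taken by gene name, and members and lists were chosen with earlier results of these data known. Expressed genes are the 10000 with the highest mean. Log2 ratios use a pseudocount of 17.8 for counts of members past 2-fold and for medians, and none beside intervals, which are exact 95% Clopper-Pearson intervals on the recovered reads (exact Poisson for the bars of levels) and cover counting error alone. The text names the 4 genes with the highest mean of each replication-dependent class, every expressed variant, the 3 highest and 3 lowest expressed members of each day, the 4 genes of each companion list farthest from mock on day 3, Slbp and the genes of the sort. Other names were chosen after values were seen. Recovered reads of 14106 genes with at least 60 reads were tested with edgeR 4.0.16 and DESeq2 1.42.0 (R 4.3.3), all caerulein libraries against mock. The interval calculation and the edgeR test were checked on simulated data. Whether the edgeR test would find genes whose values differ between these days was not tested. Python 3.11.15, numpy 2.4.6, pandas 2.3.3 and scipy 1.17.1 were used. Alternatives changed the scaling, the pseudocount, the filter and the genes summed. Stem-loops, transcript ends and chromosomes come from GENCODE M21, and promoters from RefSeq (GRCm38.p6), in which 48 replication-dependent and 12 variant genes were matched. Coordinates are from these references and not from the authors' build.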

Additional observations from a re-analysis of the deposited data

Results flagged for a closer look

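Members that were at least 2-fold higher than mock on one day and at least 2-fold lower on another are given here as log2 ratios of the deposited values. Hist1h1c was at 1.03 on day 4 and -1.09 on day 7, and Hist1h2bc at 1.45 on day 4 and -1.22 on day 7. Hist1h1b was at 1.88 on day 3 and -3.83 on day 4, the lower value resting on 3 reads. Hist1h2ae was at 1.72 on day 3 and -1.68 on day 5. H2afz was at 1.22 on day 3 and -1.21 on day 7, and H2afv at 1.34 on day 3 and -1.83 on day 1. With 1 library a day, the difference between days was not tested.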

How the results depend on the processing

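No paired analysis was possible because each day is 1 library and the labels give no replicate numbers that days share. With equal column totals, the replication-dependent sum had log2 ratios to mock of -0.87, 0.17, 0.60, -0.63 and -0.57 on days 1, 3, 4, 5 and 7, and of 1.04 for day 3 against day 1 and 0.43 for day 4 against day 3. Day 7 against day 5 turned round, to 0.061. The median of variants was then -0.12, 0.023, -0.57 and -0.49 on days 1, 4, 5 and 7, and that of replication-dependent genes -0.45 on day 7. Replication-dependent genes past 2-fold were then 2 lower on day 1, 1 higher on day 4 and 0 lower on day 7. With each library centred on its median, the sum was at -0.78, 0.21, 0.87, -0.63 and -0.73 on the 5 days, at 0.99 for day 3 against day 1, 0.66 for day 4 against day 3, -1.50 for day 5 against day 4 and -0.095 for day 7 against day 5, with 2 genes lower on day 1 and 1 on day 7. After quantile normalisation the sum was at 0.89 on day 4, 0.81 for day 3 against day 1 and 0.63 for day 4 against day 3, the variant median was -0.053 on day 1 and -0.54 on day 7, and 1 replication-dependent gene was lower on day 7.

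A pseudocount 4 times as large left 0 replication-dependent genes lower on day 1 and 1 on day 7, and one 4 times as small moved none of the 20 medians and counts. Among the 6000 genes with the highest mean, 0 were lower on day 1, 1 was higher on day 4 and 1 lower on day 7, with a replication-dependent median of 0.023 on day 3 and -1.07 on day 7 and a variant median of 0.59 and -0.64. With no filter, the replication-dependent median was -0.076, -0.0016, -0.14 and -0.11 on days 1, 4, 5 and 7, which turned the direction on day 4, and the variant median 0.088, -0.21 and -0.53 on days 4, 5 and 7. Replication-dependent genes past 2-fold were then 2 lower on day 1, 3 higher and 1 lower on day 3, 1 lower on day 4 and 2 lower on day 5. The same counts came from genes with at least 60 reads, a filter chosen after seeing the data, with medians of -0.16, 0.092, -0.0041 and -0.38 on days 1, 3, 4 and 7, so that day 4 again turned. These medians cover more genes, most of them with few reads.

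Without Hist1h1c, the member with the highest mean, the sum was at -0.28, 0.60, 0.36, -0.25 and -0.56 on the 5 days and at -0.61 for day 5 against day 4, and day 4 against day 3 turned to -0.24. Without Hist1h1c, Hist1h2ac, Hist1h2bc and Hist2h2be, known from other cells for poly(A)-tailed transcripts, it was at -0.11, 0.56, -0.12, -0.26 and -0.43 on the 5 days, 0.66 for day 3 against day 1, -0.68 for day 4 against day 3, -0.13 for day 5 against day 4 and -0.17 for day 7 against day 5. In this last sum, day 4 against mock and day 4 against day 3 turned direction. Class sums without their leading gene were added after seeing the data. Without Hist1h1c, the extended genes turned to -0.088 on day 4 against mock and -0.38 against day 3, and the H1 genes to 0.18 on day 1, -1.15 on day 4, -2.10 for day 4 against day 3 and 0.72 for day 7 against day 5. Without Hist1h2bc, the H2B genes turned to -0.095 on day 4 and -0.38 against day 3. Without Hist4h4, the H4 genes turned to -0.16 on day 5 against mock and -0.27 for day 4 against day 3. Summing protein-coding genes only, also chosen after seeing the data, moved none of the 9 values. The edgeR count of called genes was 0 with TMM scaling, with no filter and without each caerulein library in turn (0 to 0), and DESeq2 called 2. The cause of the other differences between settings was not tested.

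Depth limits the genes with few reads: 3 reads correspond to between 2.11 and 3.88 units over the 6 libraries.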
